A study of Mus musculus with 64 samples.

Results

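The genes described here encode enzymes of the pentose phosphate pathway and of the other routes that reduce NADP+ to NADPH. They were chosen by name: G6pdx, Pgls, Pgd, Rpia, Rpe, Tkt, Taldo1, Me1, Idh1 and Nnt. All 10 of 10 were found among the 19521 genes of the deposited tables. Bulk RNA was measured in 4 tissues of male C57BL/6J mice, namely liver, white fat (WAT), muscle and heart, with 64 libraries in 16 groups of 4. The groups were Pklr-/- mice (labelled KO) on a high-sucrose diet (HSD), Pklr-/- mice on chow, wild-type mice (labelled CTRL) on HSD and wild-type mice on chow. All mice lived under 12 h of light and 12 h of dark, were given their diet for 8 weeks, starting when 8 weeks old, and were killed at 16 weeks. The labels describe 4 mice for each genotype and diet, so the libraries of a group were taken as separate animals, and p-values measure the spread between these libraries. The labels do not say how the Pklr mutation was made, which fat depot or muscle was taken, or at what hour the mice were killed.

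The pentose phosphate pathway takes glucose 6-phosphate from glycolysis. Its oxidative branch makes NADPH, which fatty acid synthesis, glutathione reduction and cytochrome P450 enzymes consume, and its non-oxidative branch converts pentose phosphates into glycolytic intermediates or into ribose 5-phosphate for nucleotides. Malic enzyme and cytosolic isocitrate dehydrogenase are the other main cytosolic sources of NADPH, and in liver and fat malic enzyme and the oxidative branch are known as partners of lipogenesis. Mice of the C57BL/6J substrain are known for a deletion within Nnt that removes the protein of the mitochondrial proton-driven transhydrogenase, so that an Nnt transcript in such mice need not stand for active enzyme.

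Pklr, which encodes the pyruvate kinase of hepatocytes and red cells, was examined first because the genotype labels rest on it. Its level in TPM (transcript abundance scaled for length and depth) in labelled KO liver was 314, 416, 459 and 432 on HSD, against 263, 216, 217 and 154 in CTRL liver on HSD. On chow it was 246, 268, 187 and 147 TPM in labelled KO liver, against 61.6, 139, 141 and 110.3 TPM in CTRL liver. The transcript was thus not lower in the labelled KO libraries, whose groups lay wholly above CTRL on both diets. Labelled KO minus CTRL, averaged over the diets, was 1.03 ± 0.19 on the log2 scale (standard error, edgeR adjusted p = 0.185), and the transcript level cannot show whether the labelled KO mice lack the enzyme. Genotype is therefore written as labelled throughout.

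Total estimated counts ranged over the libraries between 5724366 and 12188623. The tissue labels matched their markers: summed over 8 genes each, hepatocyte markers lay at 36680 to 98290 TPM in liver and at most 489.6 TPM elsewhere, and adipocyte markers at 35690 to 60516 TPM in WAT and at most 1803 TPM elsewhere. Cardiomyocyte markers lay at 24564 to 32391 TPM in heart and at most 10106 TPM elsewhere, and skeletal myofibre markers at 34673 to 44544 TPM in muscle and at most 700.6 TPM elsewhere. Mitochondrially encoded transcripts took 36.4 to 48.5% of counts in heart and 25.2 to 31.001% in muscle, but 6.23 to 10.6% in liver and 6.43 to 11.1% in WAT, which lowers the TPM of all nuclear genes in heart and muscle relative to the other tissues. Some libraries stood apart. CTRL chow livers 1 and 3 had 45057 and 4974 TPM of Saa1, an acute-phase gene, against at most 1534 TPM in any other liver. CTRL chow WAT libraries 2 and 4 had slopes of log2 counts on log2 transcript length of 0.211 and 0.130, the 2 highest in WAT. The whole CTRL chow WAT group, at 0.0324 to 0.211, lay above every other WAT library, of which the highest was 0.0117. In WAT the length slope thus goes with this group in each comparison that uses it. The diet results are also given without livers 1 and 3 and without WAT libraries 2 and 4 where that changes a call. CTRL HSD liver library 3 had a slope of 0.181 and CTRL chow muscle library 1 one of -0.197, and each was left out in turn like every other library.

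The genes differed most by tissue. In CTRL mice on chow, WAT had the highest mean TPM for 8 of the 10, and it did so for 8 of 10 in each of the other 3 genotype and diet groups as well. The exceptions were Idh1, highest in liver on CTRL chow, and Nnt, highest in heart. For each gene the 4 tissues were put in order of their CTRL chow means, and the 30 neighbouring pairs were compared by exact 2-sided permutation tests on log2(TPM + 0.1), adjusted over the 30. Of these pairs 18 passed the exact permutation test, each with p = 0.0286, the smallest that the 70 arrangements of 4 against 4 allow, and an adjusted p of 0.0476. These 18 were the pairs without overlap. With 1 fewer such pair none would have passed, so the count is fragile. The order of the means was kept in 28 to 30 of the 30 pairs when any of the 16 CTRL chow libraries was left out.

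**Figure D1:**
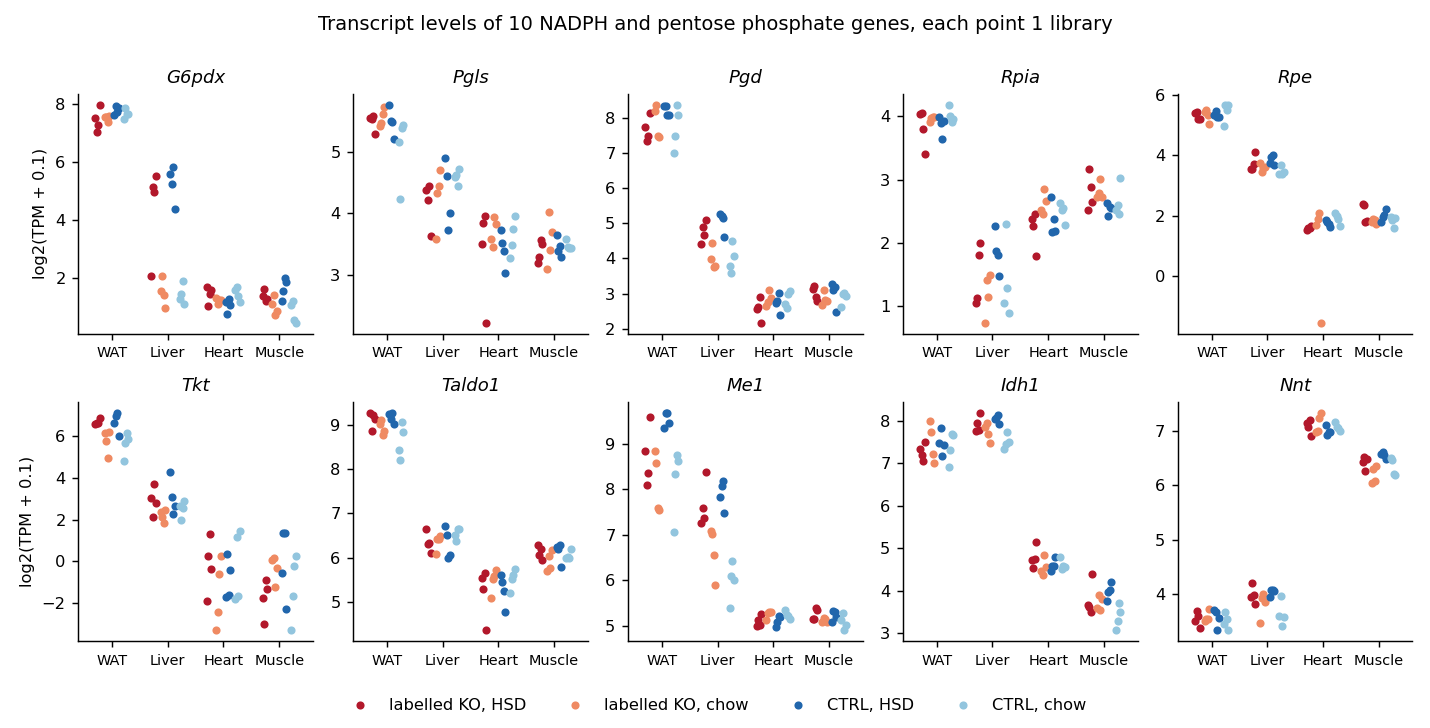
TPM on a log axis of the 10 genes in liver, WAT, heart and muscle, 1 panel per gene, each point 1 library and colours marking genotype and diet. The WAT libraries lie above the other tissues for G6pdx, Pgd, Rpia, Rpe, Tkt and Taldo1, the heart and muscle libraries lie above the others for Nnt, and the liver points of G6pdx spread between 1.90 and 56.4 TPM.

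G6pdx encodes glucose-6-phosphate dehydrogenase, the rate-limiting first enzyme of the oxidative branch (GRCm38 chromosome X:74409483-74429194, minus strand). On CTRL chow it averaged 202 ± 22.4 TPM in WAT (SD, n = 4, as for all means below) and 2.69 ± 0.430 TPM in heart, which gave 75.1-fold between these neighbours. Among heart, liver at 2.68 ± 0.671 TPM and muscle at 1.75 ± 0.474 TPM, the neighbouring pairs did not differ beyond their spread. Its near-identical copy G6pd2 was listed above 0 in 1 of the 64 libraries, with an estimated count of 1.01. Pgls, 6-phosphogluconolactonase (8:71592176-71601092, plus strand), had a flatter profile, at 35.04 ± 11.4 TPM in WAT, 24.2 ± 1.93 in liver, 12.3 ± 2.56 in heart and 11.04 ± 0.583 in muscle, and liver above heart was the one pair that passed. Pgd, 6-phosphogluconate dehydrogenase, which makes the second NADPH of the branch (4:149149991-149166771, minus strand), averaged 226 ± 89.9 TPM in WAT and 16.3 ± 4.65 TPM in liver, 13.9-fold apart. Muscle at 7.35 ± 0.930 TPM and heart at 7.14 ± 1.17 TPM came below liver and did not differ from each other.

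Of the non-oxidative enzymes, Rpia (ribose-5-phosphate isomerase, 6:70765720-70792232, minus strand) was the lowest in WAT, at 16.0 ± 1.34 TPM, above muscle at 6.24 ± 1.20, heart at 5.56 ± 0.565 and liver at 2.72 ± 1.41 TPM. WAT was separated from muscle, and the neighbouring pairs among the lower 3 tissues were not separated. Rpe (ribulose-phosphate 3-epimerase, 1:66700831-66719805, plus strand) stood at 44.1 ± 9.07 TPM in WAT, 11.1 ± 1.04 in liver, 3.69 ± 0.481 in heart and 3.48 ± 0.385 in muscle, with the last pair not separated. Tkt, transketolase (14:30548359-30574720, plus strand), moves carbon pairs between sugar phosphates. It averaged 52.3 ± 18.1 TPM in WAT and 5.77 ± 1.504 TPM in liver. In heart and muscle it was nearly absent, at 0 to 2.60 TPM over the 32 libraries, with 1 library of each tissue at 0, so its fold changes there rest on few reads. Taldo1, transaldolase (7:141392199-141402968, plus strand), had the highest mean TPM of the 7 pathway genes described here in every tissue, at 408 ± 108 TPM in WAT, 93.5 ± 8.73 in liver, 65.9 ± 4.79 in muscle and 46.3 ± 7.12 in heart, and all 3 of its neighbouring pairs passed.

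The genes outside the pathway had other profiles. Me1, cytosolic NADP-dependent malic enzyme (9:86581371-86695953, minus strand), averaged 321 ± 132 TPM in WAT, 65.3 ± 18.3 in liver, 37.7 ± 2.20 in heart and 34.01 ± 3.74 in muscle, the last pair not separated. Idh1, cytosolic NADP-dependent isocitrate dehydrogenase (1:65158616-65186500, minus strand), stood at 182 ± 21.9 TPM in liver and 171 ± 39.7 TPM in WAT, which did not differ beyond their spread, and then at 24.4 ± 2.20 in heart and 10.6 ± 2.04 in muscle. Nnt (13:119335448-119408997, minus strand) had an order unlike that of the other 9: it averaged 134 ± 6.79 TPM in heart, 81.3 ± 9.45 in muscle, 12.5 ± 2.09 in liver and 11.3 ± 1.06 in WAT. Heart and muscle, and muscle and liver, were separated in its order and liver and WAT were not. The coordinates are from the GENCODE annotation of GRCm38, in which every one of the 10 is a protein-coding gene. That annotation has a second gene record named Nnt at the same place, and the files do not say which of the records the counts refer to.

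The proximal promoters of the 5 genes with a diet call in liver or WAT are shown so that the sites usually named for lipogenic and antioxidant genes can be looked for in their letters. The sequences are RefSeq's for GRCm38.p6 and hold the 250 bases before the start site, read 5′ to 3′ on the strand of the gene. For Me1 and Pgd, which have more than 1 start in the table, the first is given. They lie at X:74428881-74429130 (G6pdx), 4:149166706-149166955 (Pgd), 14:30548881-30549130 (Tkt), 7:141391910-141392159 (Taldo1) and 9:86695915-86696164 (Me1), and capitals mark matches to the motifs described after them.
G6pdx: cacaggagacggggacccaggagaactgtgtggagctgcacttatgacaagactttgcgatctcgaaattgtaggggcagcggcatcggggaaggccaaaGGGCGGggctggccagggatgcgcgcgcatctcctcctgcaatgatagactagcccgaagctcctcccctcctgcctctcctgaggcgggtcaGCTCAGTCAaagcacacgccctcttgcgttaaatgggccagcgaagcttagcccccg
Pgd: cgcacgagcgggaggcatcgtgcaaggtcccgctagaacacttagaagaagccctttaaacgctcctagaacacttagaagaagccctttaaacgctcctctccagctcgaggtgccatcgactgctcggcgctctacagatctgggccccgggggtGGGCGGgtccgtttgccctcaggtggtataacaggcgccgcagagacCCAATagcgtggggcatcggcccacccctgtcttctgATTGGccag
Tkt: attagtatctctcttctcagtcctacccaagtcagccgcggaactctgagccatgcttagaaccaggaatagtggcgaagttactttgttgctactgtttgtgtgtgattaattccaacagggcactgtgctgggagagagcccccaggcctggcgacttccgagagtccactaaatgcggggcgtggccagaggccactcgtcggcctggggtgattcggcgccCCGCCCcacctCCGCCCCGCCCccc
Taldo1: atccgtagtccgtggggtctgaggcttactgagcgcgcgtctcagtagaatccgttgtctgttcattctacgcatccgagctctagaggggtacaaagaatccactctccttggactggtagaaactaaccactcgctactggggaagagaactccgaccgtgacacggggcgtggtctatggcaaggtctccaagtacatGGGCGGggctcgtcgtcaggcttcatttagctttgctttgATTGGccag
Me1: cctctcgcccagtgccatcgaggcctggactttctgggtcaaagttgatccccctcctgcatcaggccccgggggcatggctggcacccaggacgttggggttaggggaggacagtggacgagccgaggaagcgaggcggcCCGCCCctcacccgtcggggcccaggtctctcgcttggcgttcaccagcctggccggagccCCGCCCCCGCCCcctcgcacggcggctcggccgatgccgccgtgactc

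The motifs, searched on both strands, were the E-box CACGTG, the antioxidant response core TGACNNNGC, the sterol element core TCACNCCAC, the CCAAT box CCAAT and the GC box GGGCGG. Of all 32851 promoters of the same length, 6.02% held the E-box, 10.2% the antioxidant response core, 1.05% the sterol core, 33.9% a CCAAT box and 32.7% a GC box. G6pdx had the antioxidant response core on the minus strand, 57 bases before the start site as GCTCAGTCA, and a GC box 150 bases before it. Pgd held a CCAAT box at 46 bases and another, on the minus strand, at 9 bases before the start site, and Taldo1 had one at the same 9 bases on the minus strand. Pgd and Taldo1 held 1 GC box each, and Tkt and Me1 held 3 each on the minus strand. In Tkt the 2 nearest the start site share a base. In the 12 promoters of the 9 genes found in the table, these being all but Nnt, neither the E-box nor the sterol core was matched. A match is a run of letters and was not tested as a binding site.

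In CTRL liver, 3 of the 10 genes rose on HSD and none fell: G6pdx, Me1 and Pgd, 2 enzymes of the oxidative branch and malic enzyme. Genes that rose made up 2.48% of the 11259 tested. G6pdx was at 48.3, 38.2, 56.4 and 20.6 TPM in CTRL livers on HSD, against 2.34, 2.66, 3.63 and 2.10 TPM in CTRL livers on chow. Every HSD library lay above every chow library, and chow livers held G6pdx at the level of heart and muscle. The log2 fold change on normalised counts was 3.72 ± 0.56 (edgeR adjusted p = 0.00495), and the call was kept when any one of the 8 libraries was left out, at 3.598 to 3.93. This was the widest diet difference of the 10 genes in any tissue.

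Me1 was at 226, 270.2, 289 and 179.7 TPM in CTRL livers on HSD, against 41.9, 68.3, 86.4 and 64.6 TPM on chow, again without overlap. Its log2 fold change was 1.76 ± 0.33 (edgeR adjusted p = 0.0117). Pgd was at 38.4, 36.9, 35.8 and 24.4 TPM on HSD, against 13.7, 12.0, 22.6 and 16.8 TPM on chow, with 0.93 ± 0.24 (edgeR adjusted p = 0.0387). The lowest HSD library of Pgd, 24.4 TPM, stood only just above its highest chow library, 22.6 TPM. Its call was lost in 6 of the 8 fits that left out 1 library, with adjusted p up to 0.102, and remained without CTRL chow 3 or without CTRL HSD 4. Without CTRL chow livers 1 and 3, the libraries with high Saa1, G6pdx remained called, while Me1 had 1.74 (edgeR adjusted p = 0.0616) and Pgd 1.10 (edgeR adjusted p = 0.0730).

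The other 7 genes did not pass in CTRL liver. Nnt and Idh1 had the lowest p-values of them. Idh1 was at 264.5, 267, 278 and 244 TPM on HSD, against 161, 174, 213 and 181 TPM on chow. The groups did not overlap, and edgeR gave 0.41 ± 0.16 (adjusted p = 0.134) where limma on log2(TPM + 1) gave 0.53 (adjusted p = 0.0237). Nnt was at 16.4 ± 0.722 TPM on HSD and 12.5 ± 2.09 TPM on chow (0.29 ± 0.11, edgeR adjusted p = 0.119). The oxidative branch was not uniform, since its middle enzyme Pgls was at 20.9 ± 7.70 TPM on HSD and 24.2 ± 1.93 TPM on chow, with a log2 fold change of -0.33 ± 0.24. The 4 non-oxidative genes ranged between -0.31 for Taldo1 and 0.30 for Rpia, and Tkt, at 9.63 ± 6.60 TPM on HSD and 5.77 ± 1.504 TPM on chow, was spread widely by its first HSD library at 19.3 TPM.

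**Figure D2:**
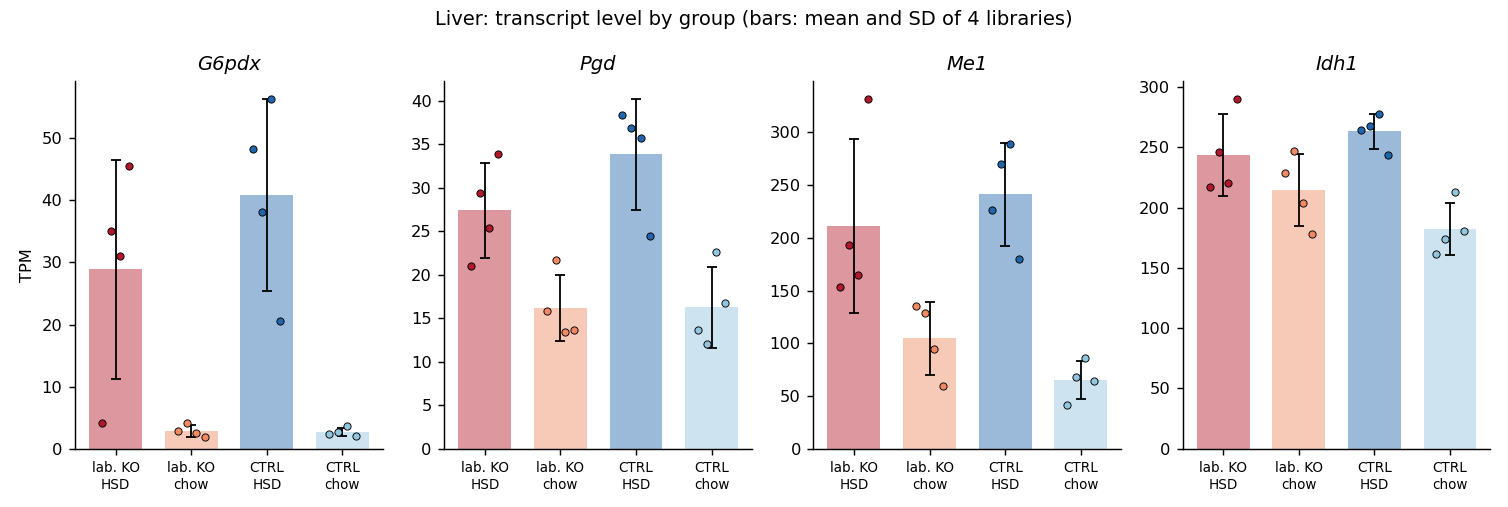
TPM of G6pdx, Me1, Pgd and Idh1 in each liver library (points) with the group mean and SD, for labelled KO on HSD, labelled KO on chow, CTRL on HSD and CTRL on chow. G6pdx is between 1.90 and 4.10 TPM in all 8 chow livers, and 1 labelled KO liver on HSD, at 4.10 TPM, lies with them.

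In labelled KO liver no member passed (0 of 10), where 1 gene of the 11259 tested, 0.00888%, was called at all. At an unadjusted p below 0.05 there were 3 of the 10, again G6pdx, Me1 and Pgd, and the DESeq2 Wald test called 1, G6pdx. G6pdx was at 4.10, 34.99, 30.98 and 45.6 TPM in labelled KO livers on HSD, against 2.83, 4.10, 2.57 and 1.90 TPM in labelled KO livers on chow. The first HSD library lay at the level of chow and the other 3 far above it, and the log2 fold change was 3.18 ± 0.56 (edgeR adjusted p = 0.122). Without that library edgeR gave 3.54 (adjusted p = 5.78e-05). The same library was also the lowest of its group for Scd1, at 4190 TPM against 9009 to 10247 TPM in the other 3, and for Fads2, at 272 against 704 to 753 TPM, but not for Acly, at 159 TPM among 135 to 204 TPM.

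Me1 was at 153, 193, 165 and 332 TPM in labelled KO livers on HSD, against 135, 129, 94.9 and 59.8 TPM on chow. These groups did not overlap, and the log2 fold change was 0.86 ± 0.33 (edgeR adjusted p = 0.365). Pgd was at 27.4 ± 5.49 TPM on HSD and 16.2 ± 3.82 TPM on chow (0.62 ± 0.24, edgeR adjusted p = 0.375). Idh1, which separated the diets in CTRL, had 244 ± 33.8 TPM on HSD and 214 ± 29.8 TPM on chow, with a log2 fold change of 0.03.

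A call in CTRL and none in labelled KO does not show that the diet acted differently on the genotypes. Tested as such, the difference of the diet responses, labelled KO minus CTRL, was -0.54 ± 0.77 for G6pdx (edgeR adjusted p = 0.908) and -0.90 ± 0.46 for Me1 (unadjusted p = 0.0696, adjusted p = 0.625), and no member passed it by edgeR, DESeq2 or limma, or at an unadjusted p below 0.05. Over all genes edgeR called 0.0% for this difference. Averaged over the genotypes, the same 3 genes rose on HSD: G6pdx by 3.45 ± 0.39 (edgeR adjusted p = 0.000806), Me1 by 1.31 ± 0.23 (adjusted p = 0.00674) and Pgd by 0.78 ± 0.17 (adjusted p = 0.0155), where 2.66% of genes rose. These 3 calls held whichever of the 16 liver libraries was left out.

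**Figure D3:**
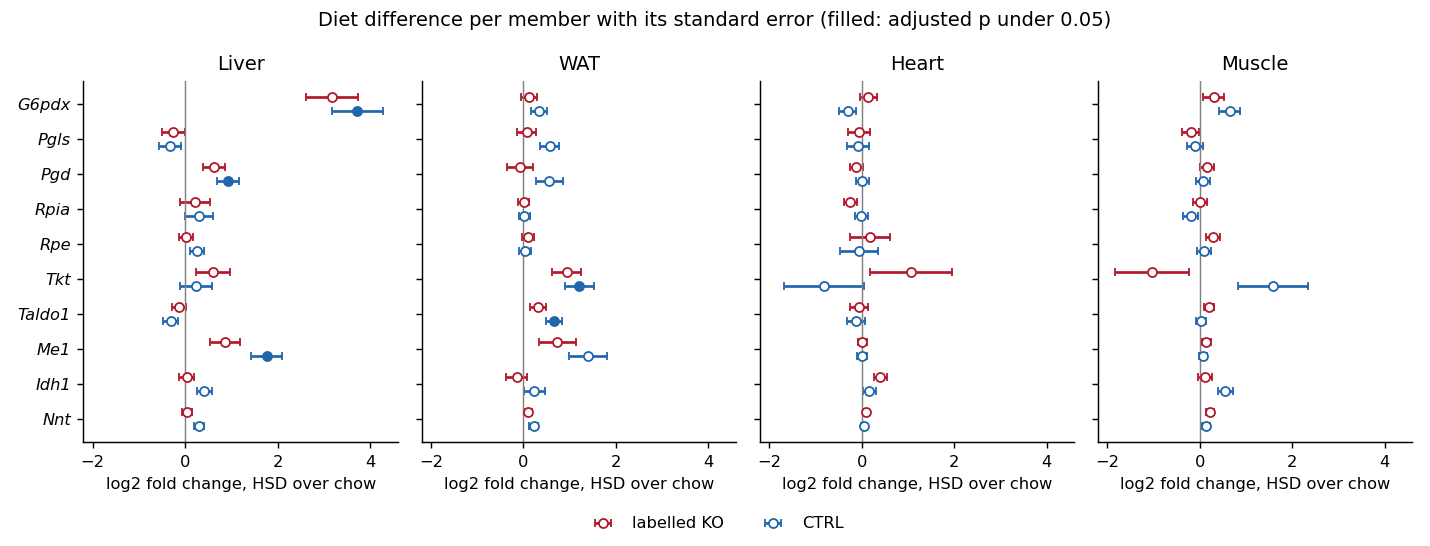
Log2 fold change of HSD over chow on normalised counts, with its standard error, for the 10 genes in each tissue, labelled KO above CTRL for each gene, filled where the adjusted p was below 0.05. G6pdx stands at 3.18 in labelled KO and 3.72 in CTRL liver and near 0 in WAT, and the filled points are G6pdx, Me1 and Pgd in CTRL liver and Tkt and Taldo1 in CTRL WAT.

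Some measures of the livers moved with diet as well. Summed hepatocyte markers were 87741 to 98290 TPM on HSD and 67129 to 83066 TPM on chow in labelled KO liver, and 86087 to 94347 TPM on HSD and 36680 to 75227 TPM on chow in CTRL liver. Within this list 0 of the 8 genes passed the edgeR diet test in either genotype, with 0 and 2 at an unadjusted p below 0.05. Endothelial markers, 8 genes of which 0 rose in labelled KO and 2 in CTRL liver, summed to 38.2 to 42.7 TPM on HSD and 24.98 to 36.5 TPM on chow in labelled KO liver, and 35.8 to 47.9 TPM on HSD and 23.8 to 33.1 TPM on chow in CTRL liver. Brown adipocyte markers were 6 genes, of which Ucp1 and Dio2 were at 0 in every liver group and Cidea in CTRL liver on chow. Their sum thus rested on the other genes. It was 122 to 197 TPM on HSD and 266 to 339 TPM on chow in labelled KO liver. In CTRL liver it was 220.2 to 478 TPM on HSD and 107 to 216 TPM on chow, and both of the 2 tested rose there. A clock score, the mean log2 level of Ciart, Dbp, Hlf, Per2, Per3 and Tef less that of Clock, Arntl and Npas2, lay at 2.08 to 3.52 in labelled KO liver on HSD and 0.862 to 2.09 on chow. In CTRL liver it lay at -2.69 to -0.00825 on HSD and 0.467 to 2.84 on chow, without overlap. With the score as a covariate G6pdx still had 3.48 in CTRL liver (edgeR adjusted p = 0.240) and Me1 1.72 (adjusted p = 0.352), and no member was called there. In the average over the genotypes with the score as covariate G6pdx and Me1 remained called and Pgd did not, at 0.72 (adjusted p = 0.0766). The part of these measures in the diet results was not tested further, and in bulk tissue fewer cells of a type and less RNA per cell cannot be told apart.

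A list of 12 lipogenesis genes held enzymes that spend NADPH, such as the fatty acid synthase Fasn, and others that do not, such as Pnpla3 and the regulator Srebf1. Of the 12, all tested in CTRL liver, 8 rose on HSD and none fell, with a median log2 fold change of 1.22 against -0.02 over all genes. Elovl5, a fatty acid elongase, averaged 672 ± 85.9 TPM on HSD and 162 ± 38.3 TPM on chow (1.94 ± 0.22, edgeR adjusted p = 0.000621). Pnpla3, a lipid droplet protein, averaged 9.67 ± 3.67 TPM on HSD and 0.455 ± 0.467 TPM on chow. It rose by 4.25 ± 0.68 (edgeR adjusted p = 0.00511), a fold change that rests on a chow level near 0. The desaturases Fads1 and Fads2 rose by 1.03 (adjusted p = 0.00846) and 1.17 (adjusted p = 0.0127). Of 11 genes of the citrate and pyruvate shuttle, which carries acetyl units to the cytosol and feeds malic enzyme, 3 rose: Cs, citrate synthase, by 0.81 ± 0.15 (adjusted p = 0.0102), Acly, ATP citrate lyase, by 1.34 ± 0.34 (adjusted p = 0.0389), and Mpc1, a subunit of the mitochondrial pyruvate carrier, by 0.44 ± 0.12 (adjusted p = 0.0423).

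The remaining lists stayed mostly below the threshold in CTRL liver. Of 14 targets of NRF2, the transcription factor of the antioxidant response, 2 rose: Gclc, the catalytic subunit of the enzyme that starts glutathione synthesis, by 0.58 (edgeR adjusted p = 0.0172), and Srxn1, sulfiredoxin, by 0.60 (adjusted p = 0.0364). The median over the NRF2 list was 0.01. No gene passed among 10 other pentose phosphate and ribose genes, 11 other NADPH sources and NAD kinases, and 13 redox and sterol users of NADPH, of which 1, 3 and 3 were below an unadjusted p of 0.05. In labelled KO liver no gene of any of these lists was called. There 9 of the 12 lipogenesis genes had an unadjusted p below 0.05 and their median was 1.13, with Fads2 at 1.23 (adjusted p = 0.122) and Elovl6 at 1.58 (adjusted p = 0.126).

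The diet response of G6pdx was tested against each other tissue in one fit over all 64 libraries. It was wider in liver than in WAT by 3.21 ± 0.31 (edgeR adjusted p = 1.88e-10), than in heart by 3.55 ± 0.35 (adjusted p = 1.62e-09) and than in muscle by 3.004 ± 0.36 (adjusted p = 2.52e-07). Me1 responded more in liver than in heart, by 1.31 ± 0.29 (adjusted p = 0.00794), and than in muscle, by 1.23 ± 0.29 (adjusted p = 0.00884), whereas its liver and WAT responses differed by 0.23 ± 0.29 (adjusted p = 0.709). Taldo1 went the other way, with a response lower in liver than in WAT by -0.74 ± 0.17 (adjusted p = 0.00261). These are 2 of 10 members in each comparison, and called genes were 10.6% of the 14592 tested for liver against WAT, 1.84% against heart and 4.24% against muscle. Pgd had 0.84 ± 0.24 against heart (adjusted p = 0.0558), which passed at 0.0243 to 0.0393 without any 1 of CTRL chow liver 3, CTRL HSD liver 4, labelled KO chow liver 2 or labelled KO HSD liver 1, and Tkt -0.66 ± 0.42 against WAT (adjusted p = 0.351). The tissues came from the same mice, but the labels do not say which libraries share a mouse, so this fit takes the libraries of different tissues as independent. With the number in the library title as a block, Pgd passed against heart at 0.86 (edgeR adjusted p = 0.00546). It also passed against muscle at 0.71 (adjusted p = 0.0154) and WAT at 0.49 (adjusted p = 0.0430). Pgls then passed against WAT at -0.67 (adjusted p = 0.0155).

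In CTRL WAT, 2 of the 10 rose on HSD, Tkt and Taldo1, both of the non-oxidative branch, where 1.85% of the 13255 genes tested rose. Tkt was at 99.7, 126, 141 and 65.6 TPM in CTRL WAT on HSD, against 28.3, 51.3, 71.7 and 57.8 TPM on chow. The groups overlapped through the fourth HSD library, and the log2 fold change was 1.21 ± 0.31 (edgeR adjusted p = 0.0400). Taldo1 was at 604, 564, 617 and 513 TPM on HSD, against 345, 295, 536 and 454 TPM on chow, with 1 chow library above the lowest HSD one (0.67 ± 0.17, edgeR adjusted p = 0.0406). Both calls sat near the threshold: Tkt lost its call in 6 and Taldo1 in 7 of the 8 fits that left out 1 library, with adjusted p up to 0.116 and 0.107. Without CTRL chow WAT libraries 2 and 4 neither was called, Tkt having 1.19 (adjusted p = 0.307) and Taldo1 0.55 (adjusted p = 0.305). Both calls were also lost with the trend on transcript length removed, Tkt having 1.23 (edgeR adjusted p = 0.0712) and Taldo1 0.56 (adjusted p = 0.0966).

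Me1 was at 650.4, 822, 818 and 702 TPM in CTRL WAT on HSD, against 133, 325, 432 and 392 TPM on chow. The groups did not overlap, and the log2 fold change was 1.40 ± 0.41 (edgeR adjusted p = 0.0606), which DESeq2 called at 1.42 (adjusted p = 0.0185). G6pdx, so different between the diets in liver, was at 195, 241, 209 and 231 TPM on HSD and 177, 232, 199 and 201 TPM on chow in CTRL WAT, overlapping groups with a log2 fold change of 0.34 ± 0.17 (adjusted p = 0.242). Its highest liver level, 56.4 TPM, was below its lowest WAT level, 129.9 TPM. Pgd was at 296 ± 29.7 TPM on HSD and 226 ± 89.9 TPM on chow (0.56 ± 0.29, adjusted p = 0.258), the chow libraries running between 128 and 329 TPM. Pgls had 0.57 ± 0.20 (adjusted p = 0.105).

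In labelled KO WAT no member passed by edgeR, where 6.38% of genes were called, 1 of the 10 had an unadjusted p below 0.05, and DESeq2 called 1, in both cases Tkt. Tkt was at 96.8, 101, 101 and 118 TPM in labelled KO WAT on HSD, against 70.9, 55.2, 31.2 and 75.3 TPM on chow, without overlap (0.93 ± 0.31, edgeR adjusted p = 0.0812). Taldo1 was at 616, 463, 592 and 559.9 TPM on HSD, against 515, 555, 439 and 462 TPM on chow, overlapping groups (0.32 ± 0.17, adjusted p = 0.283). Me1 was at 456, 273, 328 and 774 TPM on HSD, against 457, 382, 194 and 186 TPM on chow (0.74 ± 0.41, adjusted p = 0.297), with a range inside each group wider than the difference of the means. G6pdx was at 183, 129.9, 156 and 248 TPM on HSD, against 187, 186, 164 and 193 TPM on chow (0.11 ± 0.17, adjusted p = 0.745).

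**Figure D4:**
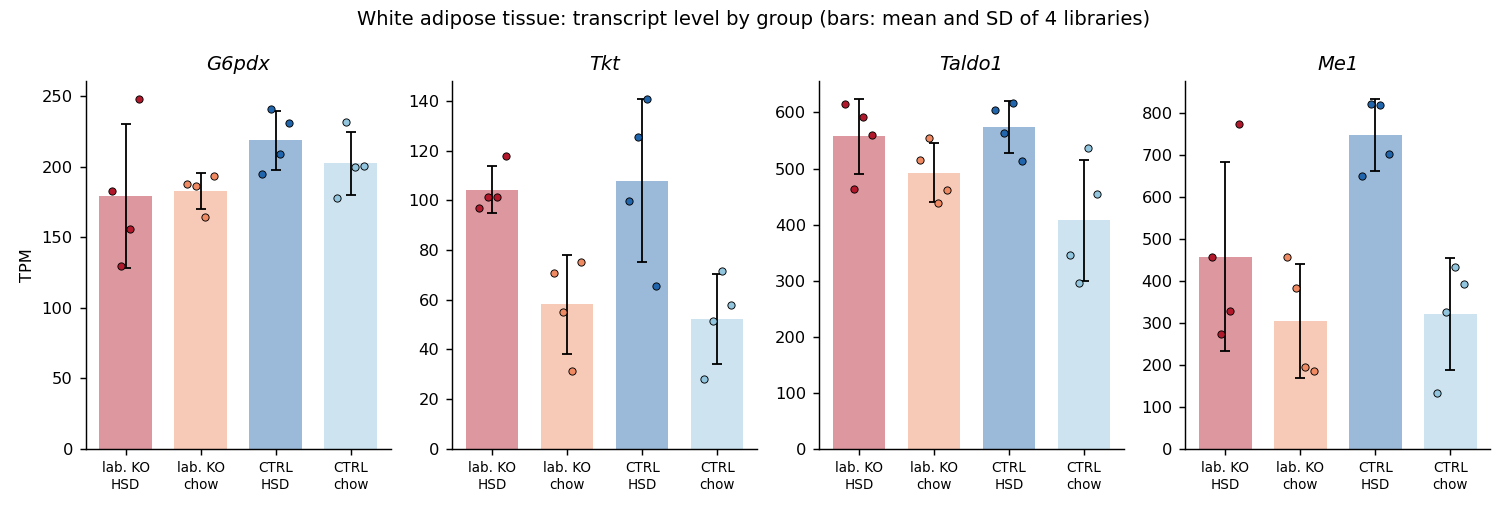
TPM of genes of the WAT diet comparison in each WAT library (points) with the group mean and SD, for labelled KO on HSD, labelled KO on chow, CTRL on HSD and CTRL on chow. Tkt lies at 96.8 to 118 TPM on HSD and at 31.2 to 75.3 TPM on chow in labelled KO WAT, while the G6pdx groups overlap.

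Averaged over the genotypes, 3 of the 10 rose in WAT on HSD: Tkt by 1.07 ± 0.22 (edgeR adjusted p = 0.00651), Taldo1 by 0.50 ± 0.12 (adjusted p = 0.0160) and Me1 by 1.07 ± 0.29 (adjusted p = 0.0274). Genes that rose were 4.51% of those tested, and the median over the 10 members was 0.24 against -0.02 over all genes. Me1 lost its call without CTRL chow 2, CTRL HSD 3 or labelled KO HSD 4, at adjusted p of 0.0535 to 0.0559. Without CTRL chow libraries 2 and 4 only Tkt of the 3 was called, and with the clock score as a covariate none was, with Tkt at 0.95 (adjusted p = 0.176). In labelled KO WAT the score lay at 2.46 to 3.30 on HSD and -1.59 to 0.0863 on chow, without overlap, so score and diet are hard to tell apart there. In CTRL WAT it lay at -1.51 to 0.227 on HSD and -0.497 to 1.43 on chow, overlapping. The interaction of genotype and diet passed for 0 of the 10 by edgeR, DESeq2 and limma, with none at an unadjusted p below 0.05, where 0.573% of genes were called.

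Summed markers of several other cell types differed with diet in WAT, some lower and some higher on HSD. Over 8 genes, fibroblast markers were 3481 to 3889 TPM on HSD and 5781 to 7154 TPM on chow in labelled KO WAT, and 3685 to 4485 TPM on HSD and 5129 to 6458 TPM on chow in CTRL WAT. Of the 8, 6 fell in labelled KO and 2 fell in CTRL. Over all 13255 genes tested in WAT, 488 fell in labelled KO and 387 in CTRL. Endothelial markers were 375 to 414 TPM on HSD and 545 to 734 TPM on chow in labelled KO WAT, and 332 to 399 TPM on HSD and 437 to 601 TPM on chow in CTRL WAT, with 3 and 5 of 8 that fell. Macrophage markers, 12 genes of which the Kupffer cell gene Clec4f was at 0 in CTRL WAT, were 1170 to 1526 TPM on HSD and 1630 to 2451 TPM on chow in labelled KO WAT, and 1057 to 1639.6 TPM on HSD and 1572 to 2145 TPM on chow in CTRL WAT, with 2 and 5 of 11 tested that fell. Brown adipocyte markers, 6 genes of which Ucp1 was at 0 in labelled KO WAT on HSD, were 58.7 to 156 TPM on HSD and 75.5 to 119 TPM on chow in labelled KO WAT. In CTRL WAT they were 68.6 to 93.7 TPM on HSD and 32.7 to 46.1 TPM on chow, without overlap, and 1 of the 3 tested rose. Hepatocyte markers, 8 genes of which 6 were tested and none passed by edgeR (2 in labelled KO and 1 in CTRL at an unadjusted p below 0.05), were 44.3 to 52.1 TPM on HSD and 25.6 to 489.6 TPM on chow in labelled KO WAT, and 49.2 to 59.3 TPM on HSD and 30.9 to 37.04 TPM on chow in CTRL WAT. Adipocyte markers overlapped between the diets, at 48744 to 60516 TPM on HSD and 37891 to 52453 TPM on chow in labelled KO WAT, and 43947 to 53884 TPM on HSD and 35690 to 50708 TPM on chow in CTRL WAT. The part of these shifts in the WAT results was not tested.

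Around the members in WAT, averaged over the genotypes, 9 of 12 lipogenesis genes and 7 of 11 citrate and pyruvate shuttle genes rose on HSD and none fell. Fads1 rose by 1.16 ± 0.14 (edgeR adjusted p = 0.000184), Scd1, the stearoyl-CoA desaturase, by 1.39 ± 0.20 (adjusted p = 0.000599), Mpc1 by 0.70 ± 0.14 (adjusted p = 0.00493) and Pcx, pyruvate carboxylase, by 0.73 ± 0.15 (adjusted p = 0.00618). Of 10 other NADPH sources and NAD kinases, 3 rose: the NAD kinases Nadk, cytosolic, by 0.26 (adjusted p = 0.00773) and Nadk2, mitochondrial, by 0.55 (adjusted p = 0.00424), which make the NADP+ that these enzymes use, and Aldh1l1, a folate enzyme that forms NADPH, by 0.55 (adjusted p = 0.0125). Both NAD kinases were called in labelled KO WAT, Nadk at 0.33 (edgeR adjusted p = 0.0230) and Nadk2 at 0.70 (adjusted p = 0.0128). Neither was called in CTRL WAT (adjusted p = 0.158 and 0.126). There Nadk averaged 139 ± 6.54 TPM on HSD and 137 ± 6.36 TPM on chow. Nadk2 averaged 8.70 ± 0.569 TPM on HSD and 8.81 ± 1.86 TPM on chow. Of 10 other pentose phosphate and ribose genes, Shpk, sedoheptulokinase, rose by 0.31 (adjusted p = 0.0479), while the phosphoribosyl pyrophosphate synthetases Prps1 and Prps2, which draw on ribose 5-phosphate, fell, with -0.62 (adjusted p = 0.0126) and -0.45 (adjusted p = 0.0338). Prps1 averaged 57.3 ± 14.6 TPM on HSD and 76.9 ± 10.6 TPM on chow in labelled KO WAT, and 44.2 ± 3.83 TPM on HSD and 95.7 ± 32.8 TPM on chow in CTRL WAT. Gsr, glutathione reductase, was the one of 13 redox and sterol users that rose, by 0.40 (adjusted p = 0.00317), and with Gsta4, a glutathione transferase, at 0.74 (adjusted p = 6.48e-05), it made 2 of 13 NRF2 targets that rose. Txnrd1, a thioredoxin reductase on both lists, fell in CTRL WAT, with -0.42 (edgeR adjusted p = 0.0401). It averaged 23.7 ± 1.56 TPM on HSD and 35.4 ± 3.66 TPM on chow there. Averaged over the genotypes it was not called (-0.15, adjusted p = 0.232).

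In heart and muscle no member passed in any of the diet comparisons by edgeR, DESeq2 or limma. The clock score separated the diets without overlap in labelled KO libraries of both tissues. It lay at 1.32 to 2.04 on HSD and -1.10 to -0.242 on chow in heart. For muscle it was 0.264 to 1.28 on HSD and -1.71 to -1.43 on chow. In CTRL heart 0.0247% of genes were called on HSD, in labelled KO heart 0.14% and in the average 0.173%, and 0, 1 and 1 of the 10 had an unadjusted p below 0.05. In muscle the shares were 0.091%, 0.00827% and 1.12%, with 2, 1 and 3 of the 10. G6pdx was at 2.54 ± 0.345 TPM on HSD and 1.98 ± 0.443 TPM on chow in labelled KO muscle, and at 3.14 ± 0.746 TPM on HSD and 1.75 ± 0.474 TPM on chow in CTRL muscle, averaging 0.47 ± 0.16 on the log2 scale (edgeR adjusted p = 0.158). Idh1 in muscle had 0.33 ± 0.11 (adjusted p = 0.158) and Nnt 0.18 ± 0.06 (adjusted p = 0.172), which was called at 0.23 (adjusted p = 0.0436) without CTRL chow library 1, the one with the length slope of -0.197. In heart, where Nnt was highest, it stayed between 119 and 160 TPM in all 16 libraries. Me1 kept to 31.2 to 40.6 TPM over the heart libraries and 29.9 to 41.99 TPM over those of muscle. H6pd, the glucose-6-phosphate dehydrogenase of the endoplasmic reticulum, was the pentose phosphate gene that rose in muscle, by 0.58 ± 0.11 averaged over the genotypes (adjusted p = 0.0142): it was at 6.26 ± 1.06 TPM on HSD and 3.97 ± 0.588 TPM on chow in labelled KO muscle, and 6.38 ± 0.396 TPM on HSD and 3.98 ± 0.631 TPM on chow in CTRL muscle.

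None of the 10 genes was called for genotype in any tissue, on either diet or averaged, by edgeR, DESeq2 or limma. On HSD the clock score separated labelled KO from CTRL without overlap in every tissue. It lay at 2.08 to 3.52 against -2.69 to -0.00825 in liver and 2.46 to 3.30 against -1.51 to 0.227 in WAT. In heart it lay at 1.32 to 2.04 against -1.39 to 0.124, and in muscle at 0.264 to 1.28 against -1.82 to -0.342. Score and genotype are thus hard to tell apart on HSD. In liver 0.0% of genes were called on chow, 0.0711% on HSD and 0.0% averaged, and 2, 0 and 0 of the 10 had an unadjusted p below 0.05. In WAT 6.68% were called on chow, 0.106% on HSD and 3.09% averaged, with 1, 0 and 0 of the 10, so no member was among the genotype calls there. On chow the length slopes of the WAT libraries did not overlap, at -0.0626 to -0.0278 in labelled KO and 0.0324 to 0.211 in CTRL. In heart 0.0412% were called on HSD and 0.0% on chow and averaged, with none of the 10 at an unadjusted p below 0.05, and in muscle 0.0% in all 3 comparisons, with 1 of the 10 in each. The interaction of genotype and diet called 0.00824% of genes in heart and 0.0% in muscle and no member in either. Me1 in liver on chow, at 135, 129, 94.9 and 59.8 TPM in labelled KO and 41.9, 68.3, 86.4 and 64.6 TPM in CTRL, had 0.76 ± 0.33 (edgeR adjusted p = 0.372) with overlapping groups. Pgls in WAT on chow was at 43.3, 44.5, 49.1 and 53.6 TPM in labelled KO and 35.9, 18.7, 42.02 and 43.5 TPM in CTRL (0.49 on the log2 scale, adjusted p = 0.148). Nnt in muscle averaged -0.16 ± 0.06 over the diets (adjusted p = 0.571). The genotype difference of liver against each other tissue was not called for any member either, with 0 to 2 of the 10 at an unadjusted p below 0.05, where 0.678% of genes were called against WAT, 0.0137% against heart and 0.0822% against muscle. Idh2, the mitochondrial isocitrate dehydrogenase and not one of the 10, rose in labelled KO WAT by 0.29 ± 0.07 averaged over the diets (adjusted p = 0.0337).

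The makeup of the 4 cytosolic NADPH-forming transcripts, G6pdx, Pgd, Me1 and Idh1, is given as shares of their summed TPM, with no test. In liver their sum was 511 ± 135 TPM in labelled KO on HSD, 338 ± 67.6 in labelled KO on chow, 579 ± 81.3 in CTRL on HSD and 266.5 ± 43.9 in CTRL on chow. Idh1 took 48.8 ± 5.596% of it in labelled KO on HSD and 64.1 ± 4.64% on chow, and 45.9 ± 4.34% in CTRL on HSD and 68.8 ± 3.46% on chow. Me1 took 40.4 ± 4.62% in labelled KO on HSD and 30.3 ± 4.96% on chow, and 41.4 ± 3.02% in CTRL on HSD and 24.2 ± 3.52% on chow. G6pdx took 5.37 ± 2.902% in labelled KO on HSD and 0.831 ± 0.130% on chow, and 6.89 ± 1.97% in CTRL on HSD and 1.003 ± 0.144% on chow, so that even where it moved most it stayed a small part of the transcripts.

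In WAT the 4 were spread more evenly. Me1 held 44.2 ± 5.95% in labelled KO WAT on HSD and 32.1 ± 5.26% on chow, and 51.8 ± 3.58% in CTRL WAT on HSD and 33.6 ± 6.46% on chow. G6pdx held 18.1 ± 1.17% in labelled KO WAT on HSD and 21.2 ± 5.97% on chow, and 15.2 ± 1.08% in CTRL WAT on HSD and 23.4 ± 6.72% on chow, although its mean TPM in CTRL WAT was no lower on HSD. Pgd held 20.6 to 26.5% and Idh1 12.4 to 20.2% over the 4 group means. Transcript shares say nothing of enzyme activity or of flux through each route.

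**Figure D5:**
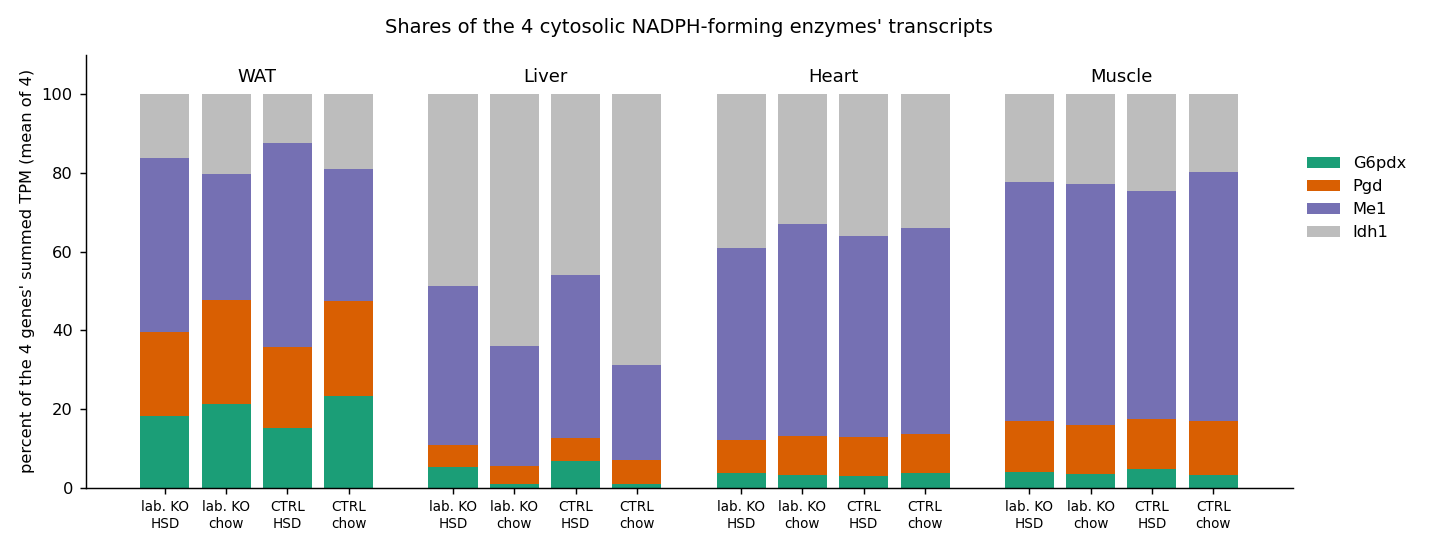
Mean share (percent, n = 4) of each of G6pdx, Pgd, Me1 and Idh1 in their summed TPM, stacked, for each tissue, genotype and diet. In liver Idh1 is the largest part in all 4 groups, with 45.9 to 68.8%, and in WAT G6pdx and Pgd hold parts that they do not reach in liver.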

How the data were processed

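The authors deposited estimated counts and TPM by gene. The TPM of the 19521 genes sum to 816010 to 926964 per library. Transcripts were quantified with kallisto against GRCm38, per the submitters' processing notes, and neither a version nor an annotation release is named there. All per-sample columns were matched to samples. Total estimated counts per library set the depth, and their number limits the precision of genes with few reads. No count column was identical to another among 96 replicate pairs (lowest chi-square per degree of freedom 4.42).

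Rounded estimated counts entered edgeR 4.0.16 (R 4.3.3): TMM factors, filterByExpr with a minimum count of 10, robust dispersions and quasi-likelihood F tests on group means, with 1 fit per tissue for 7 contrasts and 1 fit over all 64 libraries for the comparisons between tissues. All 10 members were tested in every fit, over 11259 genes in liver, 13255 in WAT, 12134 in heart, 12092 in muscle and 14592 in the fit over all libraries. P-values are 2-sided and Benjamini-Hochberg adjusted over all genes tested, with a threshold of 0.05. Errors of log2 fold changes are approximate standard errors from the F values. Fold changes are on normalised counts and can differ from those of mean TPM. For Tkt the estimated count per TPM varied between libraries by 17.7% in liver and 22.7% in heart (coefficient of variation). The procedure was tested on simulated data.

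The members and the gene lists were chosen with earlier results of these data known. The text names the 10 members, Pklr and, of each list, up to 4 genes with the smallest p in a comparison. Saa1, H6pd and Idh2, and the list genes named for single libraries or levels, were chosen after their values were seen.

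Alternatives were DESeq2 1.42.0 size factors, the DESeq2 Wald test, limma 3.58.1 on log2(TPM + 1) and log2(TPM + 0.1), no low-count filter, only the 8 libraries compared, a clock score as covariate, the trend on transcript length removed, TPM without mitochondrial genes, each library left out, and a replicate block by title number. Leaving out the doubted libraries was added after seeing the data. Where 1 library was left out of the fit over 64, the dispersions of the full fit were kept. The exact permutation tests used scipy 1.17.1. Promoters are RefSeq's (GRCm38.p6) and gene coordinates GENCODE's (vM21, GRCm38).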

Additional observations from a re-analysis of the deposited data

Results flagged for a closer look

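The diet response of some genes differed between tissues, by a test of the difference itself in the edgeR fit over all 64 libraries. For G6pdx the response was higher in liver than in heart by 3.55, than in muscle by 3.004 and than in WAT by 3.21 on the log2 scale. For Me1 it was higher in liver than in heart by 1.31 and than in muscle by 1.23. For Taldo1 liver minus WAT was -0.74.

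In 6 groups of 4, 1 library lay far from the other 3 relative to the range of its group. At 1 in 20, chance gives 8 of the 160 groups looked at. Pgls was at 39.3 TPM in labelled KO HSD WAT library 4, with the others at 46.5 to 48.02 TPM, and at 11.9 TPM in CTRL chow muscle library 1, with the others at 10.7 to 10.9 TPM. Taldo1 was at 73.1 TPM in CTRL chow muscle library 4, with the others at 63.1 to 64.3 TPM. Idh1 was at 20.9 TPM in labelled KO HSD muscle library 4, with the others at 11.2 to 12.6 TPM. Nnt was at 15.3 TPM in CTRL HSD liver library 1, with the others at 16.7 to 16.9 TPM, and at 13.3 TPM in labelled KO chow WAT library 4, with the others at 11.3 to 11.6 TPM.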

How the results depend on the processing

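Of 818 alternative values of the counts reported, 791 stayed within 1.5 times and 27 moved. Most of these counts were 0 in the main fit, and 0 against 0 was taken as unmoved. Of 12680 alternative values for single genes and for the called counts of the other lists, 11802 were unchanged. A gene was unchanged if it kept its side of the threshold and, where called, its direction. A list count was unchanged if it stayed within 1.5 times. The 18 neighbouring tissue pairs past the threshold became 0 with TPM without mitochondrial genes, 0 in labelled KO chow libraries and 0 in a sign-flip test with the title number as replicate block, whose smallest p over 4 pairs is 0.125. In the first 2 settings the loss follows from fewer pairs at the smallest p. Leaving out a library gives no test of the pairs, since 3 against 4 cannot go below 0.0571.

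With the clock score as covariate the members called on HSD became 0 in CTRL liver, against 3, 0 in CTRL WAT, against 2, and 0 in the WAT average, against 3. Without the doubted libraries they were 1 in CTRL liver, 0 in CTRL WAT and 1 in the WAT average. In CTRL WAT they were also 0 with the length trend removed, 1 with no low-count filter and 1 with only the 8 libraries compared. In labelled KO, DESeq2 called 1 in liver and 1 in WAT, against 0 by edgeR, and the fit of only the 8 libraries called 1 in WAT. Liver against heart had 5 by limma, against 2, and liver against WAT had 6 by limma and 4 with the replicate block, against 2. The cause was not tested. Leaving out each library gave 2 to 3 members in CTRL liver, 0 to 1 in labelled KO liver, 3 in the liver average, 0 to 3 in CTRL WAT, 0 in labelled KO WAT, 2 to 3 in the WAT average, 0 to 1 in the muscle average, 2 to 3 for liver against each other tissue and 0 in all other comparisons.

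The title numbers pair the samples only by number. Over the pairs of tissues, same-numbered libraries correlated at -0.065 to 0.326 in their deviations from the group means, over 0.1 for 5 to 7 of 16 numbers. Compared only with the 4 numbers of the same genotype and diet, 9 to 14 of 16 correlated best with their own number. That is more than random matching among 4 numbers would give, though no label ties a number to a mouse. With the block, Pgd passed in liver against WAT (0.49, edgeR adjusted p = 0.0430), heart (0.86, adjusted p = 0.00546) and muscle (0.71, adjusted p = 0.0154), and Pgls in liver against WAT (-0.67, adjusted p = 0.0155).

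Among genes called in the main fit or in the alternative, directions reversed in 2 cases. Changes of sign in genes called in neither were not counted. Nnt, liver against WAT, was 0.25 by limma (adjusted p = 0.0469), and Por in labelled KO WAT was -0.000680 with the clock score, against 0.80. Idh1 in CTRL liver passed by limma only. Depth limits Tkt in heart and muscle, where counts were near 0.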
